A study of Mus musculus with 9 samples.

Results

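Cftr, Gabrp, Slc6a14, Clca1 and Wfdc2 are 5 genes of chloride transport and duct-type secretion of the mouse stomach. They were selected on their array signals, which were higher at the squamocolumnar junction than in the tissue on either side. Every probe set with one of these symbols as its single gene symbol was taken, which gave 9 of the 45101 probe sets on the array. Of these 9, 7 passed the filter on low signals, with at least 1 for each gene. The junction is the line where the glandular corpus, which secretes acid, meets the forestomach, a squamous-lined compartment that rodents have and humans lack. All animals were healthy, untreated female C57Bl/6 mice, 9 in number and 3 months old. From every stomach a strip of corpus, a strip of junction and a strip of forestomach, each 600 to 800 µm wide, were cut next to one another. Strips of 3 mice were pooled to give 1 series, so the 3 arrays of a zone came from separate pools and the 3 arrays of a series came from the same mice. The strips hold whatever tissue was cut with the epithelium, and smooth muscle genes were measured in every zone. In such bulk tissue, fewer cells of a type and less RNA per cell cannot be told apart.

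Cftr is the cyclic AMP-gated chloride and bicarbonate channel of the apical membrane, and its loss causes cystic fibrosis. In ducts of the pancreas, bile tree, salivary glands and airway submucosal glands, chloride enters the cell from below through a cotransporter, leaves through Cftr into the lumen, and sodium and water follow. Clca1 is a secreted protein of goblet cells that raises current through calcium-activated chloride channels. Gabrp is the pi subunit of the GABA-A receptor, itself a chloride channel, and is found in epithelia outside the brain. Slc6a14 carries neutral and cationic amino acids into epithelial cells with sodium and chloride. Wfdc2 is a small secreted protein with whey acidic protein domains, made by ducts and glands of the airway, the mouth and the reproductive tract.

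Because all 5 genes had their highest signal at the junction, the 250 bases before the start of each were read from RefSeq (build GRCm38.p6) and searched for 8 motifs. A window was found for 4 of the 5 genes, all but Clca1. Capitals mark the motif matches, and every sequence is written 5′ to 3′ on the strand of its gene.
Cftr, chr6:18170437-18170686, plus strand: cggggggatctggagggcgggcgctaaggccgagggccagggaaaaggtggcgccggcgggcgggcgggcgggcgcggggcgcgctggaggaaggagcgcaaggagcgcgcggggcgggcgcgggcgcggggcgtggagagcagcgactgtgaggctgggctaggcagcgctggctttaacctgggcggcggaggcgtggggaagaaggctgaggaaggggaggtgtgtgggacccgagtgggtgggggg
Gabrp, chr11:33578958-33579207, minus strand: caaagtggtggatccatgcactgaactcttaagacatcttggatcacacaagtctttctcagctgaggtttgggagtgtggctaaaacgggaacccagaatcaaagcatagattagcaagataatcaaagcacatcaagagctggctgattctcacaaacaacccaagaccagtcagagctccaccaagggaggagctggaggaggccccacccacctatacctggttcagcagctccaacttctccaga
Slc6a14, chrX:21714650-21714899, plus strand: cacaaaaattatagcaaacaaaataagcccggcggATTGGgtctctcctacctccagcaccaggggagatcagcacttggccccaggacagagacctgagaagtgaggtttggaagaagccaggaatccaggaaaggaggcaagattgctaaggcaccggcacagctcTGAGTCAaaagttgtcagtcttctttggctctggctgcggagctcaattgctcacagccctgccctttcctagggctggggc
Wfdc2, chr2:164562465-164562714, plus strand: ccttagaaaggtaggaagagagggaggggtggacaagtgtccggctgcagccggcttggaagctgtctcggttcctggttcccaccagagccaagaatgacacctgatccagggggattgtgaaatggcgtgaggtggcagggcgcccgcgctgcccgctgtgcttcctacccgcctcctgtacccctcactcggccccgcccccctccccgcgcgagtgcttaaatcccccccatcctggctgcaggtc

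The motifs were searched on both strands: TATAAA (the core promoter box), CCAAT (binding site of NF-Y), TGACGTCA (cyclic AMP response element), TGANTCA (AP-1 site), CGGAAGT (ETS core with flank), AACCNGTT (Grainyhead-like site), TGTTTAC (forkhead site) and the HNF1 site. The window of Slc6a14 held both matches that were found. One is TGAGTCA, an AP-1 motif on the plus strand that begins 82 bases before the start, a motif held by 6.75% of 32851 such windows. The other is ATTGG, which is CCAAT on the opposite strand, 215 bases before the start, and 33.8% of the windows hold that motif. The windows of Cftr, Gabrp and Wfdc2 hold none of these letters. The 4 windows therefore have no searched motif in common. They also differ in base composition, with a G+C content of 76.4% for Cftr, 64.8% for Wfdc2, 54% for Slc6a14 and 49.2% for Gabrp against a median of 52.4% over all windows.

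Signals are the deposited MAS5 intensities, which are linear and have no unit. The array medians lay between 47.9 and 57.1, and a probe set was kept where its signal was above the 40th percentile of its own array (29 to 36.5) on at least 3 arrays. Differences between zones are on the scale log2(signal + 9.8), which understates the change of dim genes, and the 3 arrays per zone limit the precision. Signals of different probe sets are not compared with each other. Sums of marker signals are compared between zones only, and the brightest probe sets of a list weigh most in them. The markers of each labelled tissue were high in it. Squamous markers (17 genes) summed to 115300 to 124600 on forestomach arrays and 3010 to 5363 on corpus arrays. Corpus gland markers (15 genes) summed to 115500 to 166200 on corpus arrays and 1414 to 33160 on forestomach arrays. On forestomach arrays the gland markers stood at a median of 0.299% of their corpus signal in series 1, 2.74% in series 2 and 4.44% in series 3. Forestomach arrays 2 and 3 thus carried more corpus transcripts than array 1. The junction arrays held both tissues. The squamous markers stood there at medians of 59.4%, 76.6% and 85.9% of the forestomach mean in series 1 to 3, and the gland markers at 91.2%, 76.1% and 83.7% of the corpus mean.

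Cftr, the apical anion channel, had a low signal in both neighbours and a clear one at the junction. Its kept probe set (1420579_s_at) read 24, 16.6 and 36.5 on the corpus arrays of series 1 to 3 and 12, 25 and 18.1 on the forestomach arrays. On the junction arrays it read 178.5, 218.6 and 253.4. The corpus and forestomach arrays overlap, and the lowest junction array is 4.89 times the highest of the other 6. Means were 25.7 ± 10.1 in corpus, 18.4 ± 6.50 in forestomach and 216.8 ± 37.5 at the junction (SD, n = 3 each). On the log2 scale the junction stood 2.70 above corpus and 3.02 above forestomach. These values are a description and were not tested, since the gene was chosen for this pattern. Only 1 corpus array and no forestomach array passed the filter level, so Cftr was kept essentially through the junction and its level elsewhere is near the floor of the measurement. The other Cftr probe set (1427767_a_at) was not kept. It read 0.5 to 8 in corpus, 2.4 to 4.6 in forestomach and 7.7 to 14.1 at the junction, where the lowest junction array falls below the highest corpus array.

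Clca1, the goblet cell product, differed from the other 4 genes in having a corpus signal and almost none in forestomach. Its kept probe set (1416306_at) read 458.4, 165.5 and 465.8 in corpus, 0.5, 14.5 and 3.1 in forestomach, and 1327.6, 1396.4 and 1475.2 at the junction. The 3 zones do not overlap, and the corpus array of series 2 is far below the other corpus arrays. The lowest junction array is 2.85 times the highest corpus array. Within a series the junction was 2.90, 8.44 and 3.17 times its corpus array in series 1, 2 and 3, and the large ratio of series 2 stands beside its low corpus array. No forestomach array passed the filter level. The other Clca1 probe set (1459889_at) was not kept and read 5.7 to 31.3 over all 9 arrays, with overlapping zones, so the pattern of Clca1 rests on 1 probe set.

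Gabrp, the epithelial GABA-A receptor subunit, was measured by a pair of kept probe sets. The one that stands for the gene (1424647_at) read 58.3, 37.1 and 41 in corpus, 39, 26.8 and 27.8 in forestomach, and 112.3, 155.3 and 124.9 at the junction. The other (1451424_at) read 22.1 to 46.7 in corpus, 9.9 to 35.4 in forestomach and 90.1 to 103.2 at the junction. On both, corpus and forestomach overlap and every junction array is above all other arrays, the lowest junction array being 1.93 times the highest other one. Over the series the junction was 1.93, 4.19 and 3.05 times its higher neighbour on the first probe set. Gabrp had the smallest step of the 5 genes between the junction and its higher neighbour, at 1.36 on the log2 scale over corpus and 1.78 over forestomach.

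Slc6a14, the amino acid carrier, passed the filter on the junction arrays alone. Its first probe set (1420503_at) read 14.8, 10.9 and 14.9 in corpus, 13.9, 30.4 and 18.5 in forestomach, and 62.8, 105 and 85.8 at the junction. Its second (1420504_at) read 9.2, 0.3 and 0.8 in corpus, 14.2, 14.6 and 10.5 in forestomach, and 59.6, 101.4 and 79.5 at the junction. The probe sets place forestomach differently: its arrays overlap those of corpus on the first and lie above all of them on the second. Both give the same order of the junction arrays, with series 2 highest and series 1 lowest. The junction was 1.995 above corpus and 1.63 above forestomach on the log2 scale by the first probe set. Slc6a14 was the only one of the 5 genes with a higher mean in forestomach than in corpus.

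Wfdc2, the secreted whey acidic protein, was the only one of the 5 above the filter level on all 9 arrays. Its single probe set (1424351_at) read 357.4, 364.8 and 482.7 in corpus, 272.3, 281 and 320.5 in forestomach, and 1333.9, 1190.2 and 1313.6 at the junction. The zones do not overlap, with forestomach lowest and the junction 2.47 times or more above every other array. The junction was 3.73, 3.26 and 2.72 times its corpus array in series 1, 2 and 3. The differences on the log2 scale were 1.66 from corpus and 2.10 from forestomach.

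**Figure D1:**
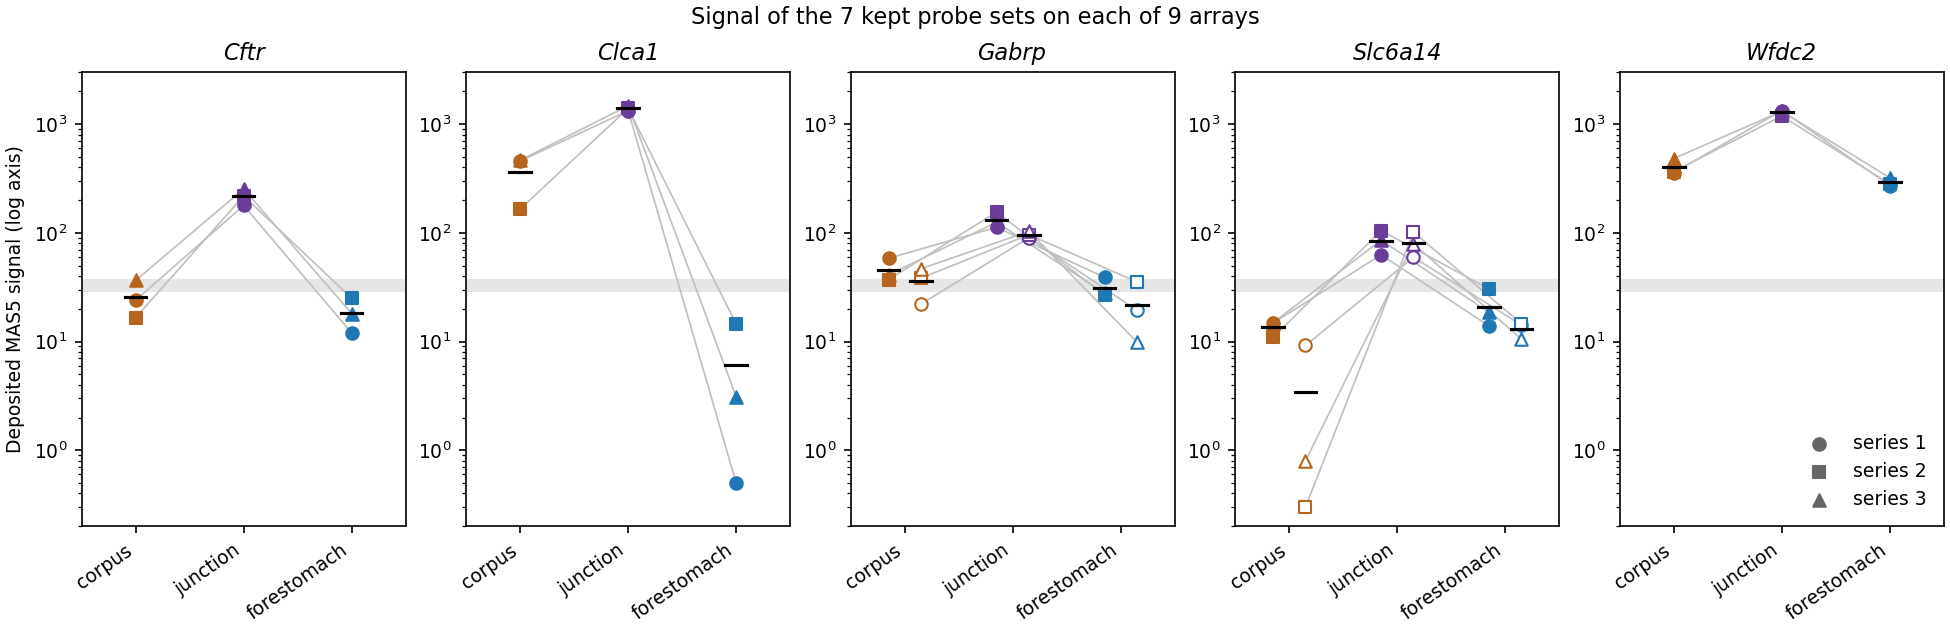
Deposited MAS5 signal (log axis) of the 7 kept probe sets of the 5 genes in corpus, junction and forestomach. Each point is 1 array, its shape gives the series, grey lines join arrays of the same series, black bars are zone means, open points are the second probe set of a gene and the grey band is the filter level of 29 to 36.5. All junction points lie above all other points of their probe set, and the forestomach points of Clca1 lie between 0.5 and 14.5.

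Ranked by the smaller of both junction differences among 13637 genes, Cftr stood at rank 9, Clca1 at 18, Wfdc2 at 29, Slc6a14 at 32 and Gabrp at 47. These ranks describe the choice of the genes. All 3 junction arrays were above the other 6 for all 5 genes, as the choice fixes. Over all genes tested, 2.85% (389 genes) had that property.

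The comparison of forestomach with corpus leaves the junction out. The test was planned for all 5 genes. It is given for Clca1, Wfdc2 and Gabrp, which passed the filter level on all 3 corpus arrays. That rule uses the corpus level, a part of this comparison, and so favours genes that are lower in forestomach. Of the forestomach arrays, 3 passed for Wfdc2, 1 for Gabrp and 0 for Clca1. Cftr and Slc6a14 were kept through the junction and lay below the filter level in both other zones, apart from 1 corpus array of Cftr, so their values are given with no test. Clca1 and Wfdc2 were lower in forestomach than in corpus, and Gabrp did not pass the threshold of 0.05, where 29.9% of all 13637 genes were called lower and 30.0% higher. The arrays of Clca1 and Wfdc2 also did not overlap between these zones, as for 33.2% of all genes in that direction. Tests were limma's moderated tests over 9 arrays with Benjamini-Hochberg adjustment over all genes. Clca1 differed by -4.52 (SE 0.42; 95% interval -5.48 to -3.56; adjusted p = 2.34e-05). As its forestomach signals are below the filter level, the size moved with the pseudocount, to -6.17 with 1 and -3.31 with 30.9, and it was -5.36 without series 2. Wfdc2 differed by -0.44 (SE 0.13; 95% interval -0.74 to -0.14; adjusted p = 0.0183). That call was lost in some settings, with an adjusted p of 0.0604 without forestomach array 1, 0.0517 without forestomach array 2, 0.0731 without series 1, 0.0762 without series 2, 0.0683 without forestomach arrays 2 and 3 together and 0.106 after median centring.

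Gabrp differed by -0.42, with arrays that overlap and an adjusted p of 0.0742 by limma. The mean of its probe sets gave a difference of -0.50 (limma, adjusted p = 0.022), and leaving out forestomach array 1 gave -0.56 (limma, adjusted p = 0.0387). The fitted difference of Cftr, between signals near the floor, was -0.32, and its arrays overlap. That of Slc6a14 was 0.37 by its first probe set, 0.85 by its second and 0.61 by the mean of both, all from signals below the filter level.

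**Figure D2:**
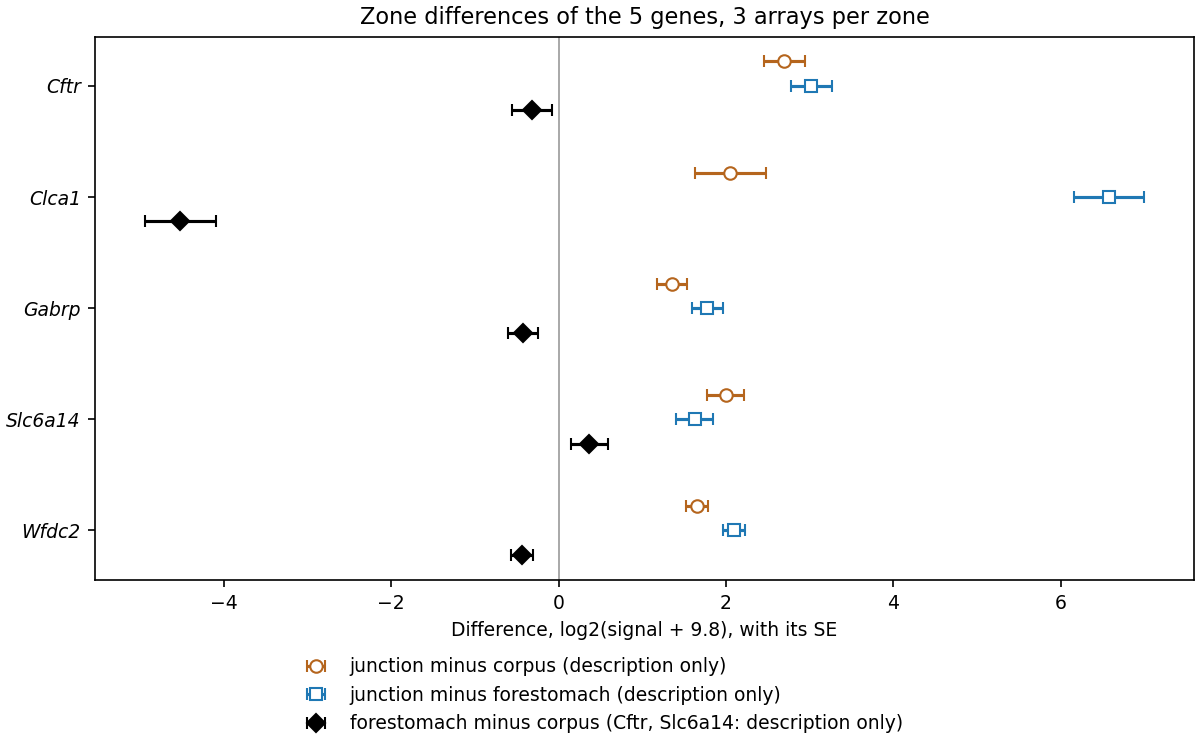
Fitted differences between zones of the 5 genes on the log2(signal + 9.8) scale, with bars of 1 SE, 3 arrays per zone. Open symbols are the junction differences, which chose the genes and are described only, and black diamonds are forestomach minus corpus, tested for Gabrp, Clca1 and Wfdc2 and described only for Cftr and Slc6a14. In that comparison Clca1 lies at -4.52 and the other 4 genes between -0.44 and 0.37.

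The 5 genes did not share one profile over the 9 arrays. Pearson's r between pairs of them on the log2 scale ran from 0.614 (Slc6a14 with Clca1) to 0.980 (Cftr with Wfdc2). These r describe 9 arrays that fall into 3 zones, so they mostly restate the zone means, and no p is given. For Cftr the most similar genes were Krt79, a keratin of gland duct openings in skin (r = 0.985), Wfdc2 (0.980), Cldn2, a claudin of leaky ductal epithelia (0.977), and Mapk6, a kinase (0.969). Krt79 averaged 133.5 in corpus, 118.8 in forestomach and 413.4 at the junction, and it was also among the 4 genes most like Gabrp and Wfdc2. Cldn2 averaged 28, 19.1 and 435.2 in the same order. Outside the junction, Cftr passed the filter level on only 1 corpus array, and both Cldn2 means lie below that level. The likeness of Cftr to these genes thus rests partly on signals near the floor. The genes most like Gabrp were Wnt5a, a secreted Wnt ligand (r = 0.977), Krt79 (0.957), Cxcl14, a chemokine (0.954), and Cldn7, an epithelial claudin (0.952). Those most like Wfdc2 were Cftr (0.980), the chemokine receptor Cxcr4 (0.980), Krt79 (0.978) and Wnt5a (0.974).

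Slc6a14 and Clca1 kept other company. The genes most like Slc6a14 were Commd2 (r = 0.982), the stress keratins Krt6a (0.982) and Krt16 (0.978), and the platelet chemokine gene Ppbp (0.971). Krt6a averaged 70.2 in corpus, 117.1 in forestomach and 1822 at the junction. Slc6a14 itself lay below the filter level on every corpus and forestomach array, and its probe sets place forestomach differently. Its likeness to these genes thus rests partly on signals near the floor. The genes most like Clca1 were the water channel Aqp5 (0.992), Pcdh20 (0.988), the epithelial adhesion gene Epcam (0.985) and the elastase gene Cela1 (0.984). Epcam averaged 1006 in corpus, 366.4 in forestomach and 1602 at the junction, so it shares with Clca1 a corpus signal above that of forestomach. Clca1 had 76 genes with r over 0.95, against 20 for Wfdc2, 16 for Cftr, 9 for Slc6a14 and 7 for Gabrp.

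The other genes of these pathways were taken from 7 lists of textbook families: chloride channels, chloride and bicarbonate carriers, regulators and partners of Cftr, the sodium channel and water path, GABA-A receptor subunits, SLC6 transporters and the whey acidic protein family. They held 114 measured genes of 184 known to the reference. Against corpus, the junction had 25 of the 114 higher and 20 lower (limma, adjusted p under 0.05), or 21.9% and 17.5%, where 13.2% of all genes were called higher and 11.8% lower. Their median difference was -0.03, beside -0.05 over all genes. Against forestomach, 40 were higher and 31 lower, or 35.1% and 27.2%, where 21.5% of all genes were called higher and 23.1% lower, and the medians were 0.04 and -0.04. Forestomach against corpus gave 38 higher and 42 lower, or 33.3% and 36.8%, beside 30.0% and 29.9% of all genes. The medians were -0.15 and -0.01. The 3 comparisons share arrays, and the counts for the junction against corpus fell when a series was left out, to 16 higher and 5 lower without series 2 and 14 and 7 without series 3. The lower count was 13 without corpus array 1, 11 without junction array 2, and 13 without junction array 3 or series 1. Against forestomach, the lower count was 20 without series 1 and 15 without forestomach arrays 2 and 3. After median centring, the split against corpus became 28 higher and 14 lower for the 114 genes, and 2110 against 873 in place of 1800 against 1606 over all genes.

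The pattern of the 5 genes, above both neighbours, was found in 0 of the 114 pathway genes by the larger of both limma p-values, adjusted over all genes, where 0.198% of all genes (27) were called. At an unadjusted p under 0.05 it was 6 genes, or 5.26%, against 2.08% of all genes. They are Aqp5, Clic1, Kcne3, Ptger4, Slc26a2 and Wfdc18. The adjusted count was 1 to 3 in some other settings, among them 1 without corpus array 2, forestomach array 1 or forestomach array 2. The same 6 genes, again 5.26%, had all 3 junction arrays above the other 6. Kcne3, a potassium channel subunit that with Kcnq1 drives chloride secretion, read 4 to 28.7 in corpus, 21.7 to 42.1 in forestomach and 125.2 to 152.1 at the junction. The junction stood 2.503 above corpus and 1.93 above forestomach for Kcne3. No corpus array and not every forestomach array passed the filter level, so Kcne3 was kept mainly through the junction. Its differences are therefore given without their test. Aqp5, the apical water channel of secretory glands, read 92.2 to 120 in corpus, 3.7 to 17.7 in forestomach and 280.2 to 346.1 at the junction. It was higher at the junction by 1.45 over corpus (limma, adjusted p = 0.00283; 0.0535 without series 3) and by 4.03 over forestomach (limma, adjusted p = 4.4e-06). Wfdc18, a whey acidic protein gene, averaged 39.7, 14.4 and 286.1 in corpus, forestomach and junction. It was 2.85 above corpus, or 2.18 without corpus array 2 and 2.25 without series 2, and 3.67 above forestomach. The Wfdc18 mean of forestomach lies below the filter level and that of corpus little above it. These differences are therefore given without their test. Sizes of dim genes depend on the pseudocount. With 1 and with 30.9 in place of 9.8, the difference of the junction from corpus was 3.18 and 1.80 for Kcne3, and that from forestomach was 4.96 and 3.05 for Aqp5 and 4.39 and 2.82 for Wfdc18.

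**Figure D3:**
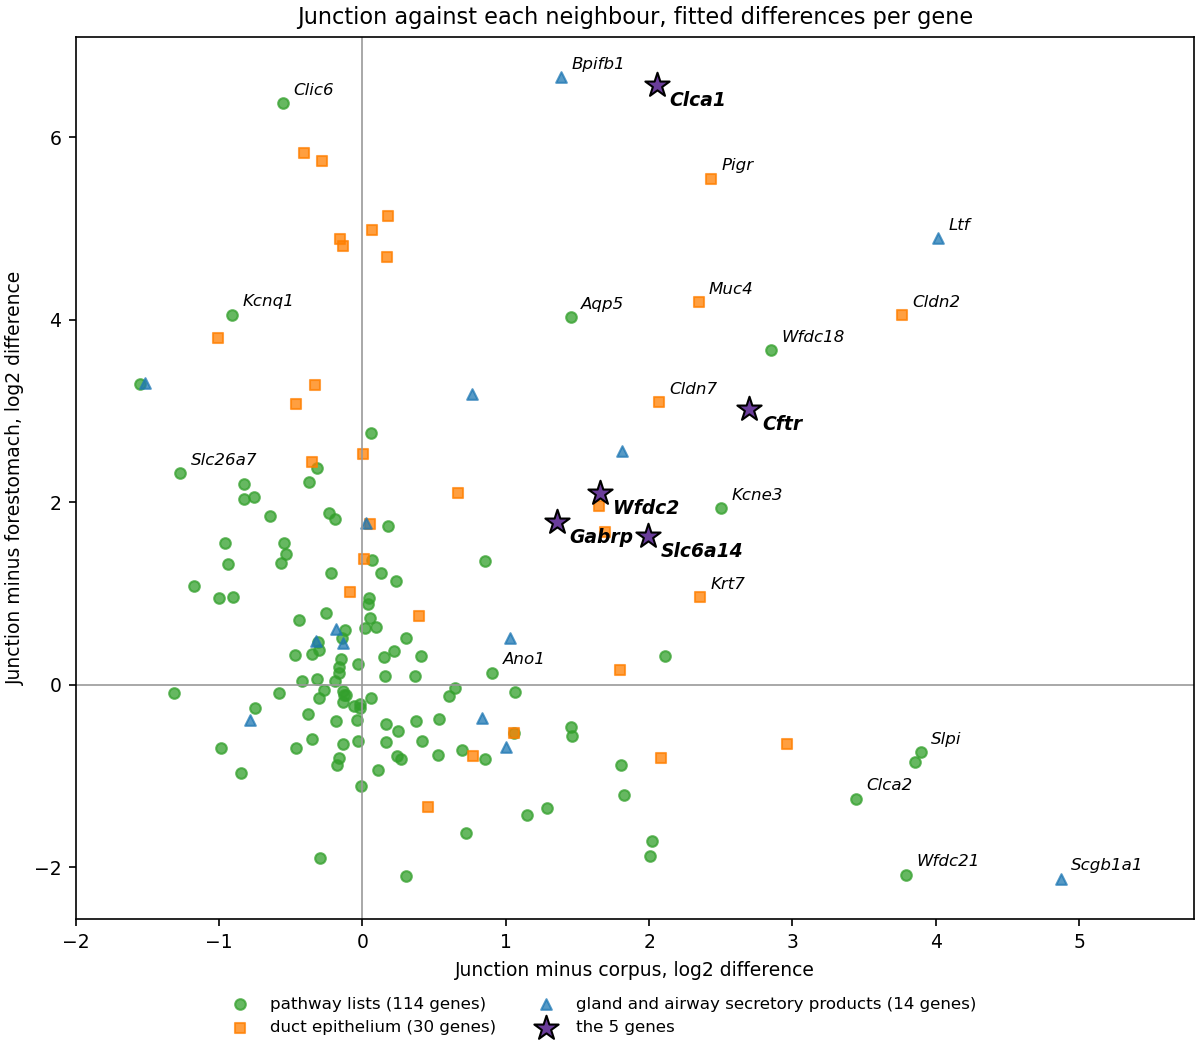
Fitted log2 difference of the junction from corpus (horizontal) and from forestomach (vertical) for 114 pathway genes, 30 duct epithelium genes, 14 secretory product genes and the 5 genes (stars). Genes to the upper right are above both neighbours, among them Cldn2 (3.77 and 4.05) and Kcne3 (2.503 and 1.93), while Clca2, Slpi, Wfdc21 and Scgb1a1 lie below the horizontal line.

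Among 27 chloride channel genes, 4 were higher and 3 lower at the junction than in corpus, and 7 higher and 8 lower than in forestomach. These are 14.8% and 11.1% against corpus, near the 13.2% and 11.8% of all genes, and 25.9% and 29.6% against forestomach, beside 21.5% and 23.1%. The 3 lower than corpus became 0 without corpus array 1, junction array 2, junction array 3, series 2 or series 3, and 1 without corpus array 3 or series 1. Against forestomach, the 7 became 4 without series 1 and the 8 became 5 without forestomach arrays 2 and 3. Of the 4 higher than corpus, 3 (Ano9, Clca2 and Clic3) were lower than forestomach. Clca2, a membrane relative of Clca1, averaged 8.40 in corpus, 451.2 in forestomach and 188.3 at the junction, 3.45 above corpus (limma, adjusted p = 1.43e-05; 4.44 with a pseudocount of 1 and 2.46 with 30.9) and 1.25 below forestomach (limma, adjusted p = 0.00247). Clca1 itself ran the other way between these neighbours. Clic3 and Ano9 had the same order of zones as Clca2, with junction differences from corpus of 1.83 and 1.15. Clca3a1, another relative, averaged 58.4, 62.6 and 83.1 and passed in no comparison. Ano1, the calcium-activated chloride channel, averaged 1216 in corpus, 2026 in forestomach and 2227 at the junction, 0.90 above corpus (limma, adjusted p = 0.0095; 0.0549 without series 2 and 0.108 without series 3) with no call against forestomach. Clic6, of the intracellular chloride channel family, averaged 9888, 129.4 and 6720, with forestomach arrays of 4, 140.9 and 243.2 in series 1 to 3. Clcn2 averaged 113.2, 31.7 and 128.9.

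Of 18 measured carriers of chloride and bicarbonate, 7 were lower (38.9%) and 1 higher (5.56%) at the junction than in corpus and 10 did not pass. Of all genes, 11.8% were called lower and 13.2% higher than in corpus. Against forestomach 12 carriers were higher (66.7%) and 2 lower (11.1%), beside 21.5% and 23.1% of all genes (4 lower with the series as a block). The lower count against corpus was 3 without series 2 and without series 3, and that against forestomach was 0 without series 1 or forestomach arrays 2 and 3 and 1 without series 2. Slc26a2, a sulfate and anion carrier, read 707.8 to 737.2 in corpus, 369.8 to 398.1 in forestomach and 787.2 to 921.1 at the junction, so every junction array was above the others. Its difference of 0.24 from corpus did not pass (limma, adjusted p = 0.0836). Slc12a2, the basolateral cotransporter that feeds chloride to Cftr in ducts, averaged 3104 in corpus, 1390 in forestomach and 2280 at the junction. It was 0.71 above forestomach (limma, adjusted p = 0.000582; 1.37 by the mean of its probe sets) and 0.44 below corpus (limma, adjusted p = 0.0134), a call that any one of the series, corpus array 1 or junction array 2 ends when left out, and median centring too (limma, adjusted p from 0.0506 to 0.106). Slc26a7, a parietal cell chloride carrier, averaged 859.8, 63.7 and 352.9 in corpus, forestomach and junction, and Slc4a2, the basolateral anion exchanger of parietal cells, 2811, 336.5 and 1578. Both were below corpus, by 1.27 and 0.83, and above forestomach, by 2.32 and 2.20. Slc4a9 was the 1 carrier higher than corpus, at 8.03, 54.9 and 39.0, a call lost without series 1 or series 2 (limma, adjusted p = 0.0835 and 0.059). The count of higher carriers was 2 without corpus array 2 or junction array 1. Slc26a9 has no probe set with its single symbol.

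Of 29 regulators and partners of Cftr, 7 were higher and 6 lower at the junction than in corpus, and 11 higher and 10 lower than in forestomach. These are 24.1% and 20.7% against corpus, beside 13.2% and 11.8% of all genes. Against forestomach they are 37.9% and 34.5%, beside 21.5% and 23.1%. Without series 2 the 7 and 6 against corpus became 1 and 1, and without series 3 the higher count against corpus was 1. It was 4 without junction array 2 and 3 without junction array 3. The lower count against forestomach was 5 without forestomach arrays 2 and 3. Kcnq1, the potassium channel partner of Kcne3 in chloride-secreting cells and of Kcne2 in parietal cells, averaged 1381 in corpus, 38.8 in forestomach and 739.9 at the junction, where it was 4.06 above forestomach (limma, adjusted p = 3.05e-05; 4.94 without forestomach arrays 2 and 3). Its difference from corpus was -0.91 (limma, adjusted p = 0.0816; 0.00636 without forestomach array 1, 0.0166 without series 1, 0.0093 without forestomach arrays 2 and 3 or with only the 6 arrays compared, and 0.0168 with a pseudocount of 30.9). Kcne3 and Kcnq1 thus had different zone profiles. Stk39, a kinase that acts on Slc12a2, and the scaffold gene Slc9a3r2 were below corpus by 0.83 and 0.94, and above forestomach by 2.04 and 1.32. Kcnn4, a calcium-activated potassium channel, was 2.76 above forestomach, and Kcnma1 2.10 below it.

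In the sodium channel and water path, 6 of 14 genes (42.9%) were higher and 1 (7.14%) lower than in corpus. Of all genes, 13.2% were called higher and 11.8% lower than in corpus. Against forestomach, where 21.5% and 23.1% of all genes were called, 5 (35.7%) were higher and 1 (7.14%) lower. The last count was 2 without junction array 2 and 0 without series 3 or forestomach arrays 2 and 3. Scnn1b, a subunit of the epithelial sodium channel, was 1.46 above corpus, and Scnn1a, its pore-forming partner, averaged 526.4, 428.4 and 473.8 and passed in no comparison. Aqp4, a parietal cell water channel, was 1.55 below corpus (limma, adjusted p = 0.00526; 0.0816 without series 3, which leaves no gene of this list below corpus). Gabrp had few measured relatives. Of 18 GABA-A receptor subunits, 4 were measured, and none was higher at the junction than in corpus, where 13.2% of all genes were. Of these 4, 1 was lower than in corpus (25%), beside 11.8% of all genes. Gabra4 averaged 91.0, 11.97 and 33.8 in corpus, forestomach and junction, and its call of 1.18 below corpus (limma, adjusted p = 0.0233) was lost with the series as a block (limma, adjusted p = 0.0553) and without corpus array 1, corpus array 3, junction array 2, junction array 3, series 2 or series 3, and with a pseudocount of 1. Of 11 SLC6 transporters, 1 was higher and 1 lower than in corpus (9.09% each, beside 13.2% and 11.8% of all genes). The lower count became 0 without corpus array 3, junction array 3 or any one of the series. Slc6a19, the neutral amino acid transporter of the gut brush border, averaged 52.2, 892.4 and 241.5, and Slc6a20a 277.8, 56.5 and 235.2. Neither exceeded both neighbours as Slc6a14 did.

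Most relatives of Wfdc2 in the whey acidic protein family had their highest signal in forestomach. Of 11 measured relatives, 6 were higher and 1 lower at the junction than in corpus (0 lower with the series as a block, and without corpus array 1 or 2, junction array 2 or 3, or series 2 or 3), and 2 higher and 6 lower than in forestomach (2 lower without forestomach arrays 2 and 3). Of the 11 relatives, 54.5% were thus higher and 9.09% lower than in corpus, beside 13.2% and 11.8% of all genes. Against forestomach 18.2% were higher and 54.5% lower, beside 21.5% and 23.1%. Slpi, an inhibitor of leukocyte elastase, averaged 403.2 in corpus, 10110 in forestomach and 6109 at the junction. It was 3.90 above corpus (limma, adjusted p = 2.53e-06) and 0.74 below forestomach (limma, adjusted p = 0.0122; 0.0955 without series 2 and 0.176 without forestomach arrays 2 and 3). Wfdc21 averaged 30.8, 2349 and 549.9, Wfdc5 21.8, 787.8 and 440.5, and Wfdc12 35.1, 544.1 and 159.3. The junction mean of each of these 3 lay between those of its neighbours, with the call of Wfdc12 against forestomach lost without forestomach arrays 2 and 3 (limma, adjusted p = 0.0628), while Wfdc2 and Wfdc18 lay above both.

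Markers of duct epithelium were often high at the junction. Of 30 measured, 14 were higher and 1 lower than in corpus (46.7% and 3.33%), and 23 higher and 4 lower than in forestomach (76.7% and 13.3%), with medians of 0.29 and 2.49 beside -0.05 and -0.04 over all genes. Over all genes, 13.2% were called higher and 11.8% lower than in corpus, and 21.5% and 23.1% than in forestomach. Without series 2 the 14 became 9. The 1 lower than corpus became 0 without corpus array 1, junction array 2 or 3, or series 2 or 3, 2 without forestomach array 1 or series 1, and 3 without forestomach arrays 2 and 3. The 4 lower than forestomach became 2 without series 2 or forestomach arrays 2 and 3. Muc4, a membrane mucin, and Cldn7 were above both neighbours by the larger limma p (adjusted p = 0.00418 and 0.0383). For 8 of the 30 (26.7%, beside 2.85% of all genes) every junction array was above the other 6, namely Cldn2, Cldn3, Cldn7, Epcam, Krt7, Muc4, Onecut2 and Pigr. Cldn2 read 3 to 46.9 in corpus, 3.2 to 29.3 in forestomach and 312.7 to 585.6 at the junction. It was 3.77 above corpus and 4.05 above forestomach. The difference from corpus was 3.11 without corpus array 2, 3.13 without series 2, 2.61 when its probe sets were averaged, 4.48 at pseudocount 1 and 3.03 at 30.9. The Cldn2 means of corpus (28) and forestomach (19.1) lie below the filter level. It was thus kept mainly through the junction, and its differences are given without their test. Krt7, a keratin of ducts, read 213.1 to 282.1 in corpus, 602.7 to 685.2 in forestomach and 1034.5 to 1625.4 at the junction. It was 2.36 above corpus (limma, adjusted p = 2.36e-05) and 0.96 above forestomach (limma, adjusted p = 0.00208; 0.0502 without forestomach arrays 2 and 3). Pigr, the receptor that carries immunoglobulin A across epithelium, averaged 335.8, 24.8 and 1573 in corpus, forestomach and junction. It was 2.43 above corpus (limma, adjusted p = 0.00626; 0.0706 without series 1) and 5.55 above forestomach (limma, adjusted p = 3.24e-05).

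Other duct markers were those of one neighbour. Krt19, Krt8, Sox9 and Elf3 were high in corpus and at the junction and low in forestomach. Krt19 averaged 7478, 401.7 and 8397 in corpus, forestomach and junction, with forestomach arrays of 100.3, 582.6 and 522.2 in series 1 to 3. Sox9, a duct and progenitor transcription factor, averaged 290.1, 34.7 and 224.9. Neither was called against corpus (limma, adjusted p = 0.849 and 0.339). Ehf and Elf5, epithelial ETS factors, were high in forestomach, with means for Ehf of 183.0, 1396 and 815.5. The corpus epithelium itself expresses Krt8, Krt18, Krt19, Tff2 and Muc1 of this list, so the list does not separate duct cells from other columnar cells.

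Of 14 secretory products of glands and airways, 6 were higher and 1 lower than in corpus (2 lower with the series as a block or without junction array 2), and 9 higher and 2 lower than in forestomach. These are 42.9% and 7.14% against corpus, beside 13.2% and 11.8% of all genes. Against forestomach they are 64.3% and 14.3%, beside 21.5% and 23.1%. The 6 became 2 without series 2. In 3 of them (21.4%, beside 2.85% of all genes), Ltf, Sftpd and Bpifb1, all junction arrays exceeded the other 6. Ltf, the iron-binding defence protein lactoferrin, read 44.2 to 141.7 in corpus, 5.5 to 81 in forestomach and 1093.2 to 1677.6 at the junction. It was 4.02 above corpus (limma, adjusted p = 0.00315; 0.0586 without series 2) and 4.89 above forestomach (limma, adjusted p = 0.000468; 4.05 without forestomach array 1, 4.25 without series 1 and 6.57 without forestomach arrays 2 and 3). Sftpd, a collectin, averaged 34.8, 16.2 and 135.3, 1.81 above corpus (limma, adjusted p = 0.00835; 0.0779 without series 2) and 2.56 above forestomach (limma, adjusted p = 0.000638). Bpifb1 read 2210.3 to 4479.1 in corpus and 7513.6 to 8254.1 at the junction, a difference of 1.39 that did not pass (limma, adjusted p = 0.336). The spread in that test comes from all 9 arrays, and the forestomach arrays of Bpifb1 were uneven. Its forestomach minus corpus difference was -3.89 without forestomach array 1 and -8.06 without forestomach arrays 2 and 3. Scgb1a1, the club cell secretoglobin, averaged 16.3 in corpus, 3279 in forestomach and 751.2 at the junction. Lcn2 averaged 43.9, 68.8 and 103.3, and Muc5b, the gel mucin of submucosal glands, 47.9, 6.70 and 47.3 with no call against corpus.

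**Figure D4:**
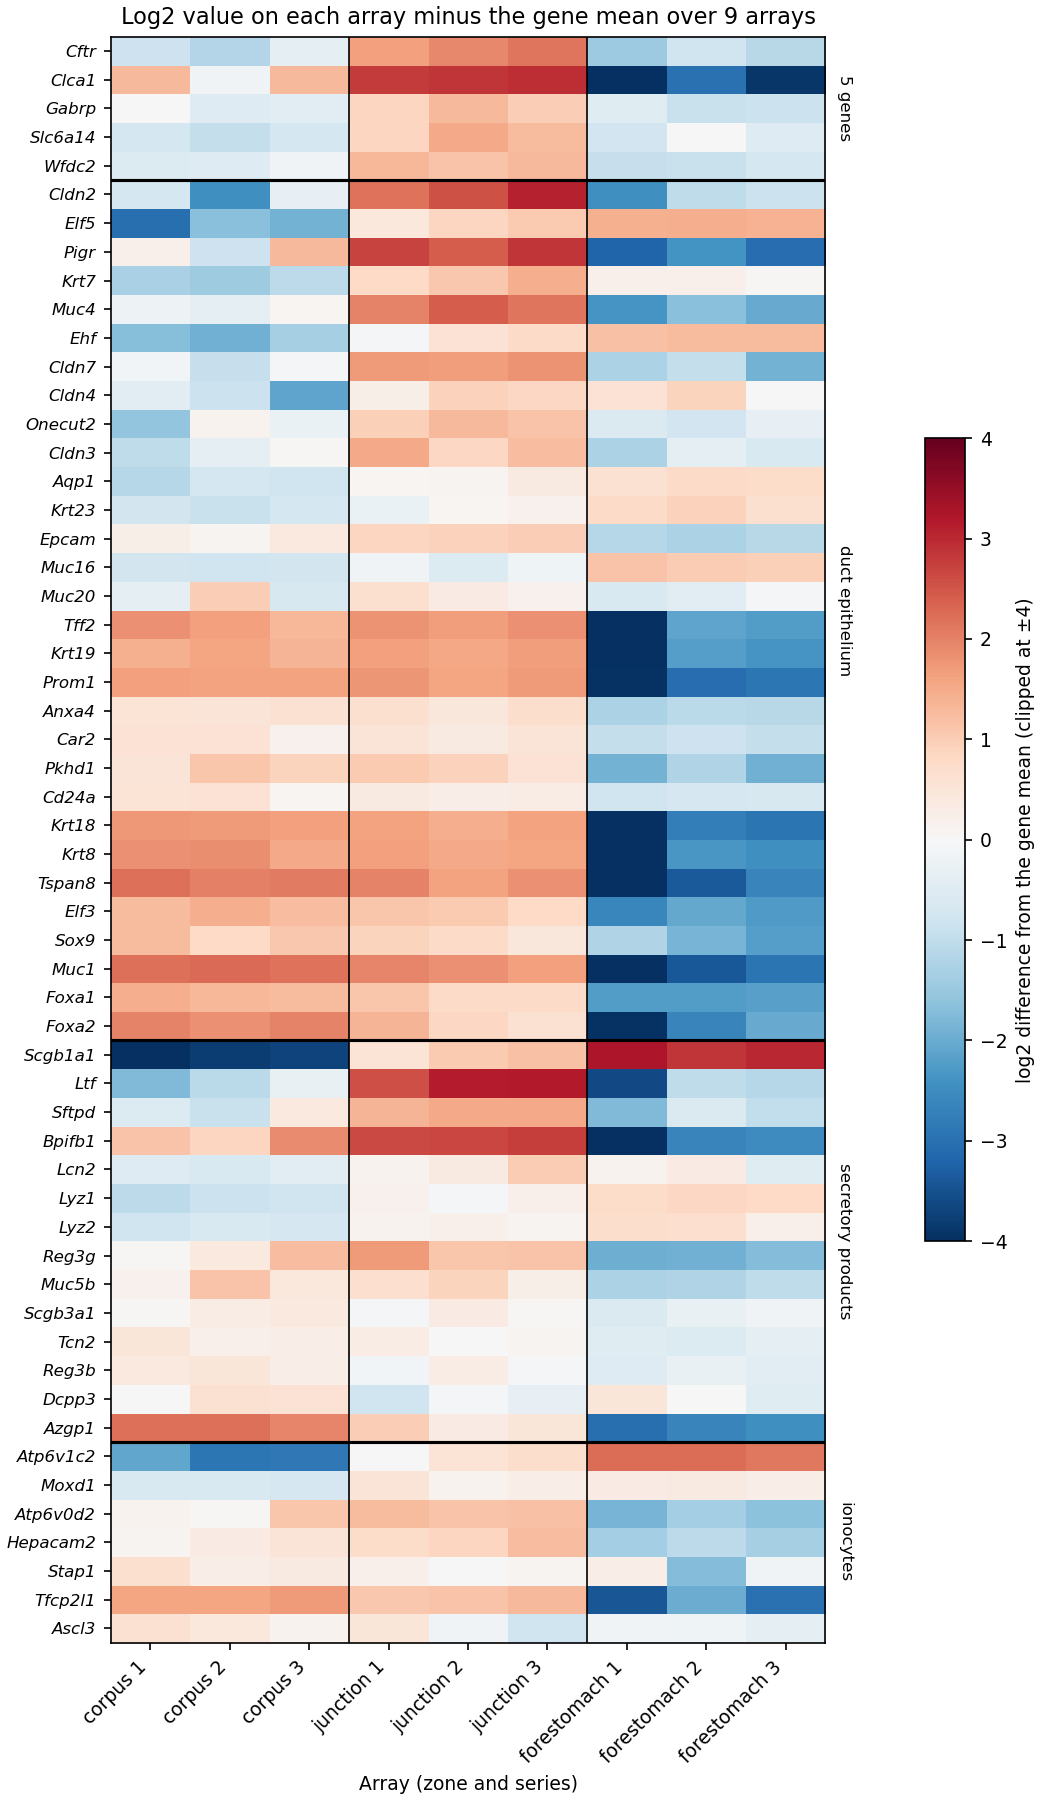
Heat map of the log2 value on each of the 9 arrays minus the mean of the gene over all arrays, for the 5 genes, the duct epithelium, secretory product and ionocyte lists, with red above and blue below the gene's mean and the scale clipped at ±4. The 5 genes and Cldn2, Pigr, Muc4, Cldn7 and Ltf are reddest on the 3 junction arrays, while Krt19 and Krt8 are red in corpus and junction and Ehf and Scgb1a1 in forestomach and junction.

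Clca1 is also a goblet cell product. Most of the other goblet cell markers were not called higher at the junction than in corpus. Of 13 measured, 1 (Fcgbp, 7.69%) was higher and 4 (30.8%) lower than in corpus (1 lower with the series as a block), and 11 (84.6%) were higher than in forestomach. Over all genes, 13.2% were called higher and 11.8% lower than in corpus, and 21.5% and 23.1% than in forestomach. The 4 became 2 without corpus array 1, corpus array 2 or series 1, 1 without corpus array 3 or junction array 2 or 3, and 0 without series 2 or 3. Fcgbp lost its call without corpus array 3, junction array 1, junction array 3, series 2 or series 3 (limma, adjusted p from 0.0528 to 0.163). The 13 markers summed to 24250 to 31260 on corpus arrays and 28810 to 32050 on junction arrays. Muc2, the intestinal goblet cell mucin, averaged 43.6, 20.2 and 22.4 in corpus, forestomach and junction, and passed in no comparison. Its forestomach and junction means lie below the filter level. Spdef, a transcription factor of mucous cells, averaged 563.6, 4.13 and 445.1. Ionocytes, rare airway cells rich in Cftr, were represented by 7 measured markers, of which 3 were higher and 0 lower than in corpus and 3 higher and 1 lower than in forestomach. The count lower than corpus was 1 without junction array 1 or forestomach arrays 2 and 3. The 7 ionocyte markers summed to 1214 to 1386 in corpus, 790.1 to 875 in forestomach and 1294 to 1436 at the junction. Foxi1, the transcription factor that defines ionocytes, had 1 probe set that read 1.3 to 29.6 and was above the filter level on no array. The part of these cell types in the values of Cftr and Clca1 was not tested.

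Markers of other cells also differed at the junction. Over all genes, 13.2% were called higher and 11.8% lower than in corpus. Squamous markers were higher than in corpus in 17 of 17 genes, with sums of 79520 to 108400, and Krt6a was above both neighbours (larger limma p, adjusted p = 0.00395). Smooth muscle markers were not called against corpus in any of 9 and summed to 24490 to 29230, beside 21510 to 31390 in corpus and 57130 to 62600 in forestomach. Blood and immune cell markers were higher than in corpus in 7 of 12 (58.3%) and lower in 0. Their sums were 2391 to 2809 in corpus, 4099 to 4259 in forestomach and 5249 to 6309 at the junction. For 4 of the 12 (33.3%, beside 2.85% of all genes) all junction arrays were above the other 6. These were the mast cell genes Cpa3, Mcpt1 and Mcpt2 and the neutrophil gene S100a8. Mcpt4 and S100a9, also measured, did not have this property. Of 5 measured pancreas acinar markers, 1 (Cela1, 20%) was higher and 3 (60%) were lower than in corpus. Cela1 read 654 to 897.3 in corpus, 50.8 to 130 in forestomach and 1902.2 to 2380.2 at the junction. The part of these cells in the junction values of the 5 genes was not tested.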

How the data were processed

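Each of 9 Affymetrix arrays held biotin-labelled cRNA from 5 µg of Trizol-extracted RNA of 1 pool of 3 mice. The deposited values are linear intensity signals, 1 per probe set, which the authors made with MAS5 per the submitters' processing notes. For its version and options: not given in the sources used here. MAS5 subtracts mismatch probes, which leaves dim signals noisy.

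Symbols came from the platform annotation, updated by Entrez ID. The 64 control probe sets and probe sets with several symbols or none were left out of the tests. Of 45101 probe sets, 29511 were kept (above the 40th percentile of their array on at least 3 arrays), and the one with the highest mean log2 value stood for each of 13637 genes. Before log2 was taken, 9.8 was added to each signal (the 20th percentile of an array, as the median of 9 arrays), and no further normalization was applied.

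Zones were compared with limma 3.58.1 in R 4.3.3 (1 mean per zone, 9 arrays, 6 residual and 2.56 prior degrees of freedom, two-sided, Benjamini-Hochberg), which was tested on simulated data. Above both neighbours means the larger p of both junction comparisons, where both differences are above 0. Figures used Python 3.11.15 and matplotlib 3.10.9.

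The 5 genes and all lists were chosen with earlier results of these data known, so no junction value of the 5 genes was tested. Forestomach against corpus is given without its test for Cftr and Slc6a14, whose signals there were below the filter level. The junction differences of Cldn2 and Kcne3, kept mainly through the junction, are given without their tests too. So are those of Sftpd and Wfdc18, whose means in both neighbours lie near or below the filter level. Named genes are the 5, up to 4 called genes per list and comparison with the largest difference and no overlap, reference genes named whatever their values (such as Slc12a2 and Krt7), and the 4 genes most like each of the 5. Cldn3, Muc4, Onecut2, Clic1, Ptger4, Slc26a2 and the immune genes were named after their values were seen. Aqp1, Aqp4 and Slc26a7 each stand in a pathway list and a marker list.

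Arrays of a series come from the same mice, so the series pairs them. As a check, array deviations from their zone means had r from -0.0287 to 0.123 within series (mean 0.0329, 9 pairs) and a mean r of -0.0165 between series (18 pairs). The alternatives were a block for the series, other pseudocounts, filters, scalings, probe set rules and variance models, and leaving out arrays or series.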

Additional observations from a re-analysis of the deposited data

How the results depend on the processing

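The fall of Clca1 from corpus to forestomach kept its call in all settings run. Sizes of dim genes moved with the pseudocount. With 1 in place of 9.8, the junction exceeded corpus by 3.08 for Cftr and 2.54 for Slc6a14, and forestomach by 3.53 for Cftr, 2.04 for Gabrp, 2.003 for Slc6a14 and 8.26 for Clca1. With 30.9 it exceeded corpus by 2.13 for Cftr, 1.08 for Gabrp and 1.36 for Slc6a14, and forestomach by 2.33, 1.38, 1.15 and, for Clca1, 5.29. Slc6a14 was not kept with a filter at the 60th percentile. Forestomach minus corpus for Wfdc2 was -0.33 after median centring (not called), and the mean of probe sets gave -0.50 for Gabrp (called) and 0.61 for Slc6a14 (signals below the filter level, no test), with 2.398 for Slc6a14 at the junction over corpus. Leaving out 1 array or series gave ranges of -0.56 to -0.26 for Gabrp and -0.52 to -0.30 for Wfdc2 in forestomach minus corpus, and of 1.12 to 1.61 and 1.58 to 2.01 for Gabrp at the junction over corpus and forestomach. Without forestomach arrays 2 and 3, the junction exceeded forestomach by 3.36 for Cftr, 1.52 for Gabrp and 7.10 for Clca1, and Wfdc2 stood at -0.53 in forestomach minus corpus (not called). The causes of these changes were not tested.

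Pathway genes above both neighbours numbered 3 with pseudocount 30.9, 1 with a filter at the 60th percentile, 1 after median centring, 2 with limma's trend and robust options, 1 with only the 6 arrays compared, 1 without forestomach arrays 2 and 3, and 0 to 1 without 1 array or series. Counts of called pathway features rose to 58 higher and 86 lower in forestomach minus corpus, 31 lower at the junction against corpus, and 74 higher and 47 lower against forestomach when all probe sets were fitted, which counts a gene more than once. They ranged from 14 to 27 higher and 5 to 20 lower (junction against corpus) and 20 to 32 lower (junction against forestomach) without 1 array or series, and the last was 15 without forestomach arrays 2 and 3. Fewer arrays were fitted there. With the series as a replicate block, Clca1 stayed at -4.52 and no call of Clca1, Wfdc2 or Gabrp changed. The block ended only the calls against corpus of Creb3l1, Foxa3 and Gabra4 among the named genes, and the list counts it moved by over 1.5 times stand beside them, except that GABA-A receptor subunits went from 0 to 1 lower against forestomach. Uncalled differences changed sign for Krt19 against corpus (-0.0777 after quantile normalization), Muc5b against corpus (-0.22 to 0.30 without 1 array or series), Muc2 against forestomach (-0.71 to 0.76, and -0.40 without forestomach arrays 2 and 3), Scnn1a against forestomach (-0.0121 to 0.28) and Kcne3 in forestomach minus corpus (-0.10 to 1.002). Dim signals and 3 arrays per zone limit what can be seen of the other probe sets of Cftr and Clca1.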
